A study of Drosophila melanogaster with 16 samples.

Results

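The genes described here were chosen by their own levels over the day in cells that carry clock transcripts, and they are called middle and late day genes. Cells with 4 or more unique molecular identifiers (UMIs, barcodes that each count 1 captured RNA molecule) of Clk, per, tim and cwo together were summed per library, scaled to transcripts per 10000 UMIs (TP10K) and averaged per time point. A gene is a member if its highest mean was at least 0.5 TP10K, at least 2 times its lowest mean and at ZT06 or ZT10, where ZT counts hours from lights on. Clk, per, tim, cwo and mitochondrial genes were left out. Of 17299 genes in the table, 3156 reached the level, 340 of those reached the ratio at any time point, and 101 are members, 53 with their highest mean at ZT06 and 48 at ZT10. Without the single ZT10 library 53 genes meet the rule, which are not the same genes as the 53 of ZT06. Without the cells above 15000 UMIs 161 do. The levels by ZT in these cells, the ratios and the peak times chose the members and are therefore given as a description, with no test.

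The study profiled the circadian neurons of the Drosophila melanogaster brain, with the many dorsal DN3 neurons included. Every single-cell library came from one genotype, in which Clk856-GAL4 together with a split GAL4 (R11B03-AD and VT002670-DBD) drove UAS-EGFP, with equal numbers of males and females held at 25°C in 12:12 LD for at least 3 days. Brains were collected at ZT02, ZT06, ZT14 and ZT22 (2 libraries each) and at ZT10 and ZT18 (1 library each), GFP-positive cells were sorted, and a library is named by its ZT and the month and day of collection (ZT02_1209). Bulk RNA came from cells sorted at ZT02 from 3 sparser drivers, R77H08, SS00367 and VT055068, with 2 libraries (A and B) each. These drivers also drove EGFP, in flies entrained for at least 3 days. R77H08 and VT055068 stand for split GAL4s that pair R11B03-AD, as in the single-cell driver, with R77H08-DBD or VT055068-DBD. SS00367, a split driver by its label, marks the neurons that the study calls APDN3. A GAL4 driver marks the cells in which its regulatory fragment is active, and a split GAL4 those in which both of its fragments are, and either can include cells that are not clock neurons. Nothing in the labels says whether the libraries of one time point came from separate groups of flies beyond their different collection dates.

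In clock neurons, CLK and CYC drive transcription of per and tim and of many output genes from midday into the evening, and PER and TIM then shut this transcription off at night. Other transcripts peak in opposite phase, around dawn, under vri and Pdp1. The network speaks through neuropeptides such as PDF, NPF, DH31 and AstA, which set the timing of morning and evening activity and of sleep, and its cell types differ in which of these they make.

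The cells used were 10916 of 23921 (45.6%), with 194 (ZT02_1209) to 1899 (ZT14_0307) per library and 2026913 to 15215785 UMIs per library. The level of tim in these cells lay between 3.27 and 5.09 TP10K at ZT02 and ZT06, was 10.6 at ZT10, and lay between 15.9 and 18.2 at ZT14 and ZT18, the order in which this clock transcript is known to rise. The summed level of elav, nSyb, brp and Syt1, which mark neurons, lay between 42.4 and 55.8 TP10K in all libraries. Both libraries of 20211209 stood apart, because LNv-, LPN-, DN1a- and DN1p-like cells made up 3.61% (ZT02_1209) and 6.47% (ZT14_1209) of their cells against 13.8% to 20.2% in the other 8 libraries. ZT02_1209 held no LNv-like and no DN1a-like cell. Cell barcodes found in more than 1 library numbered 55.

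The members did not all belong to clock neurons. The cells were clustered without the members, and of 71 clusters 26 carried clock transcripts (the log2 TP10K values of Clk, per and cwo averaged 0.930 or more, and 0.628 at most in the other clusters). These clock neuron clusters held 8861 of the 10916 cells (81.2%). They were named by markers fixed for LNv, LPN, DN1a, DN1p, DN2, LNd and DN3 neurons, most of them from the study's own lists. Of the 26, 17 received a name such as DN1p_1-like, while 9 keep a number. The markers include members, among them Pdf, CG31705, PVRAP and CG1504 for LNv and Dh31, CG43689 and Sf3b6 for DN1p_1. AstA is a marker of LPN and CG15082 of DN1a. Such genes helped to give the names, so their place in clusters of that name is not an independent result. For 56 members most UMIs lay inside the clock neuron clusters. Another 32 members had more than 50% of their UMIs outside them, spread over many cells, and 13 members lay outside in so few cells that 20 or fewer cells held 50% of the UMIs. Of all 101 members, 37 had more than 90% of their UMIs outside the clock neuron clusters. The division at 50% and at 20 cells was made after the values were seen.

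**Figure D1:**
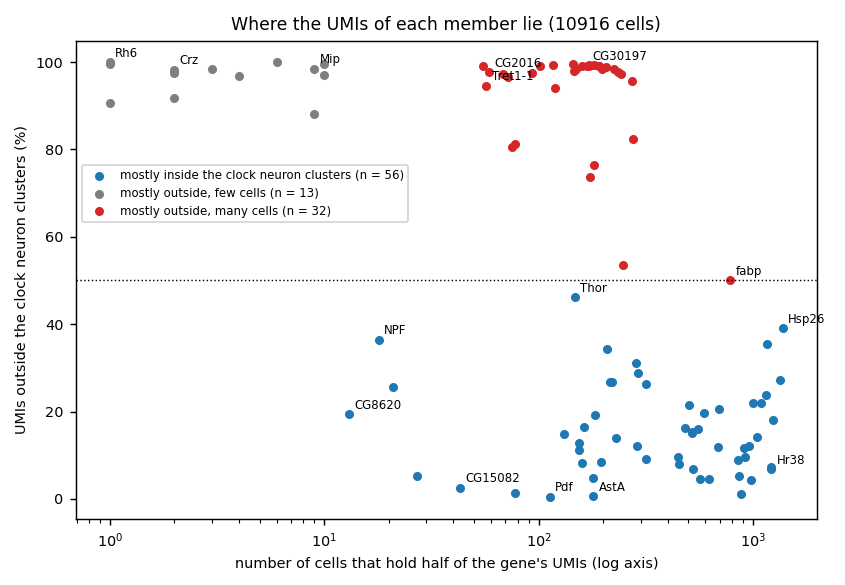
Each point is 1 of the 101 members, placed by the number of cells that hold 50% of its UMIs (log axis) and by the percent of its UMIs outside the clock neuron clusters, among the 10916 cells used by the rule. The 56 members in blue lie below the dotted line at 50%, the 32 in red lie on or above it in 55 or more cells, and the 13 in grey lie above it in 10 cells or fewer.

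The 3 sets differed in when they were high. All 32 members of the many cells outside had their highest mean at ZT06, against 16 of the 56 in clock neuron clusters, of which 40 had it at ZT10. The median ratio of highest to lowest mean was 2.63 in the clock neuron set and 2.69 in the outside set, beside 1.39 over all 3156 genes. When only cells of the clock neuron clusters were summed, 46 of the 56 still met the rule and 2 of the 32 did. With each clock neuron cluster given equal weight and without the libraries of 20211209, 20 of the 56, 1 of the 32 and none of the 13 met it. The libraries at ZT06 and ZT10 all lay above the other 7 libraries for 7 members, of which 6 were in the clock neuron set (CG15082, AstA, Gyc32E, Lac, bnb and Sytbeta) and 1 was fabp. The same held for 1.9% of the 3156 genes, but the rule used these values and nothing is read from the difference.

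**Figure D2:**
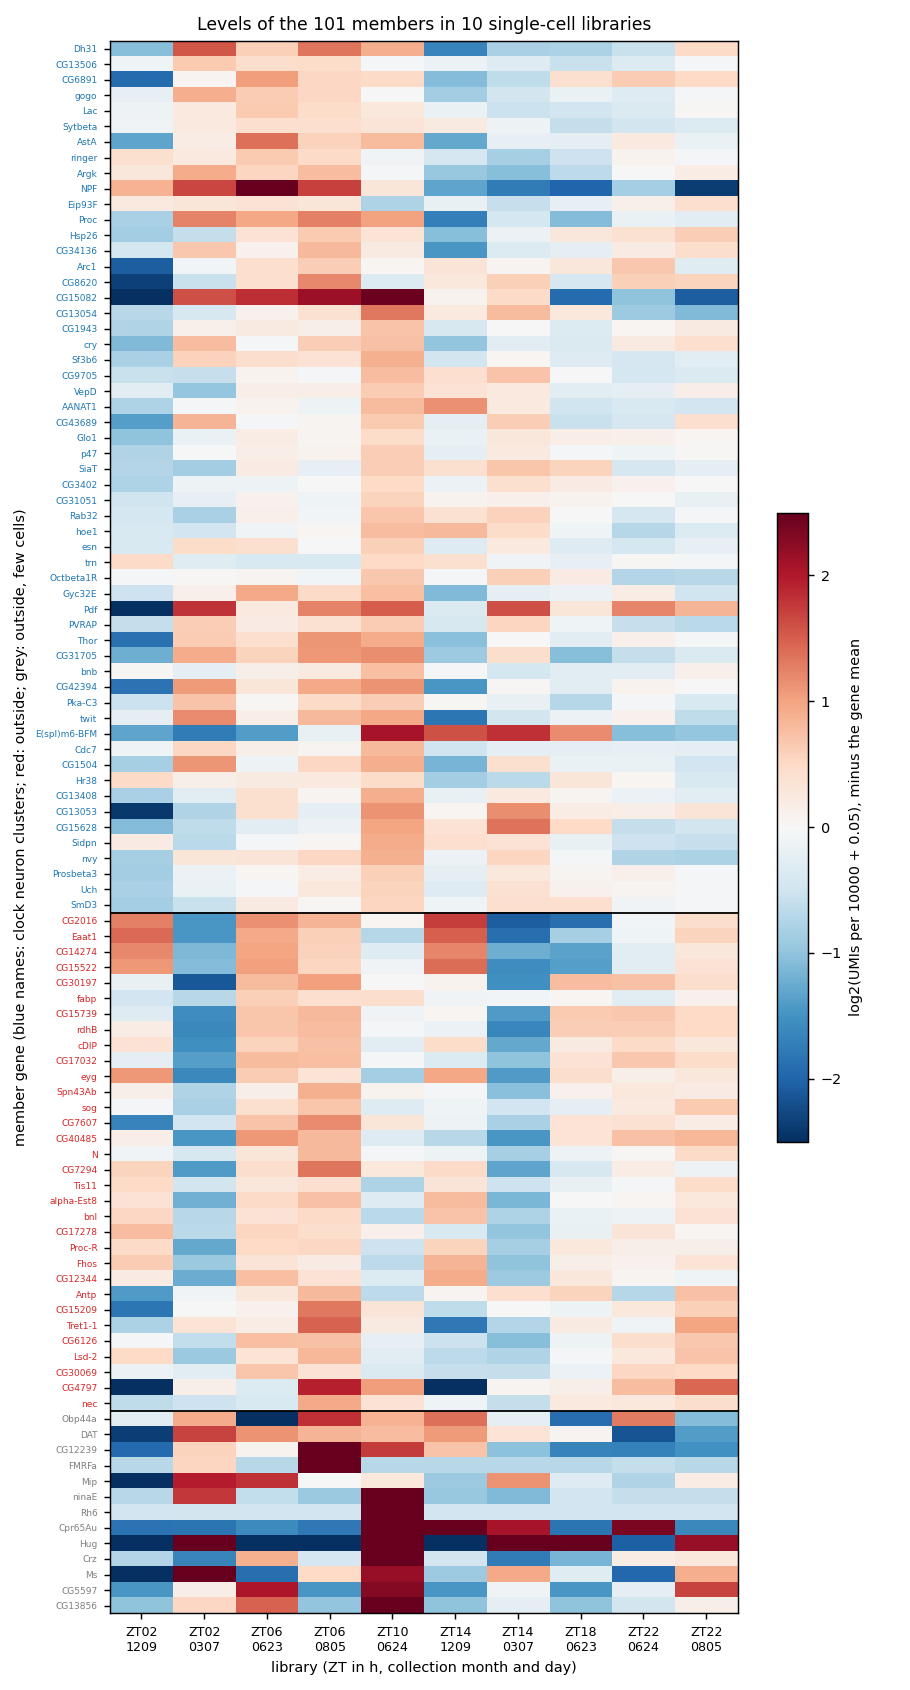
Rows are the 101 members and columns the 10 libraries, coloured by the log2 level (TP10K + 0.05) relative to the gene's own mean, with the clock neuron set on top, the outside set in the middle and the members of few cells at the bottom. In the top block the column ZT02_1209 is pale or blue for most genes, and in the middle block both columns of 20220307 are blue for most genes.

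Neuropeptides gave more members than any other list of known genes that was examined. Of 21 neuropeptide genes with a level of at least 0.5 TP10K, 10 were members (47.6%, against 3.20% of all genes at that level), namely AstA, Dh31, NPF, Proc, Pdf, Hug, Crz, Ms, FMRFa and Mip. The first 5 lay mostly in clock neuron clusters and the last 5 in few cells outside them. A further 6 neuropeptide genes reached the ratio with a peak at another time point. The median ratio of the 21 genes was 3.12.

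AstA encodes allatostatin A, a peptide through which LPN neurons act on sleep centres. It lies on chromosome 3R (dm6, 24760530 to 24765071), and 89.6% of its UMIs lay in LPN-like cells. Over the summed cells it was 46.3 and 26.8 TP10K at ZT06 and 31.2 at ZT10, and between 7.19 and 21.3 in the other 7 libraries, so that the groups did not overlap. Within LPN-like cells its mean was 268 ± 79.6 TP10K (SD, n = 9 libraries). There it was 289 at ZT02, 342 and 378 at ZT06, 375 at ZT10, 204 and 192 at ZT14, 180 at ZT18, and 226 and 225 at ZT22. Every library of ZT02 to ZT10 with at least 5 LPN-like cells therefore lay above every library of the night. ZT02_1209, with 3 such cells, was below that minimum and has no level here. A second clock neuron cluster, cluster 37, which is led by the heat-sensitive channel gene TrpA1, held a mean of 75.2 ± 47.6 TP10K of AstA (SD, n = 9). In cluster 37 it was highest at ZT02 (150) and lowest at ZT14 (18.7 and 14.6), which is earlier than in LPN-like cells.

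Dh31 encodes diuretic hormone 31, a peptide of DN1p neurons that acts on wakefulness before dawn. Over the summed cells its highest mean was at ZT06 (11.5 and 19.4 TP10K), but the single highest library was ZT02_0307 at 22.5, while ZT02_1209 was at 3.64. DN1p_1-like cells held 67.6% of the UMIs, and there Dh31 was 222 at ZT02, 196 and 225 at ZT06, 128 at ZT10, 24 and 31.3 at ZT14, 39.3 at ZT18, and 108 and 120 at ZT22. The peak within these cells thus spanned ZT02 and ZT06, and the lowest level followed lights off. LNv-like cells held less Dh31, with 36 TP10K at ZT02, 59.4 and 56.2 at ZT06 and 38.7 at ZT10, and with 2.98 to 8.60 in the 4 libraries of the night that had enough cells. In cluster 58, a cholinergic cluster outside the clock neurons in which only 21 of 111 cells met the rule, Dh31 was as abundant (194 ± 18.5 TP10K, SD, n = 9) and lay between 159 and 222 in every library.

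NPF encodes neuropeptide F, which is made by a subset of LNd neurons. It had the largest ratio of the clock neuron set, 37.6, but this value rests in part on 1 cell. The library ZT06_0623 was at 17.2 TP10K against 4.26 in ZT06_0805, and a single cell of cluster 49, outside the clock neurons, held 6241 NPF UMIs, or 28.9% of all. In cluster 11, a clock neuron cluster led by CG13950, CG14340 and NPF, its level was 63.5 and 30.9 at ZT02, 28.4 and 34.7 at ZT06, 12.6 at ZT10, and 0.965 to 7.24 in the 5 libraries of the night. It was thus higher early in the day than at ZT10 and did not overlap between day and night. In DN3_5-like a cells NPF was 25.7 and 17.9 at ZT06, 11.3 to 12.4 at ZT02 and ZT10, and 3.41 to 8.83 at night.

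Proc encodes proctolin, a peptide best known for its action on muscle. In DN1p_1-like cells it was 20.7 TP10K at ZT02, 20.5 and 21.2 at ZT06, and 4.20 at ZT10, and it was between 0.0907 and 0.523 in the 5 libraries of the night. Cluster 11 held 13.2 to 16.2 in the ZT02_0307, ZT06 and ZT10 libraries and 0.188 to 1.82 at ZT14 and ZT18, and it was back at 8.08 and 12.4 at ZT22. A cluster outside the clock neurons that is led by Proc, cluster 41, showed no such order, with 38.9 TP10K at ZT22 as its highest value and 1.76 at ZT10 as its lowest. The pattern of proctolin transcript over the day therefore differed between these clusters in its values, a difference that was not tested.

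Pdf, the peptide of the LNv neurons that synchronises the clock network, varied with the number of LNv-like cells, and little within them. LNv-like cells held 99.2% of its UMIs. Over the summed cells Pdf ranged from 0.0839 TP10K (ZT02_1209) to 160.0 (ZT02_0307). Within LNv-like cells it was 2080 ± 214 TP10K (SD, n = 8), between 1830 and 2450 in every library, with a ratio of highest to lowest ZT mean of 1.26. The number of LNv-like cells that met the rule was 0 in ZT02_1209, 4 in ZT14_1209, and 7 to 81 in the other 8 libraries.

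**Figure D3:**
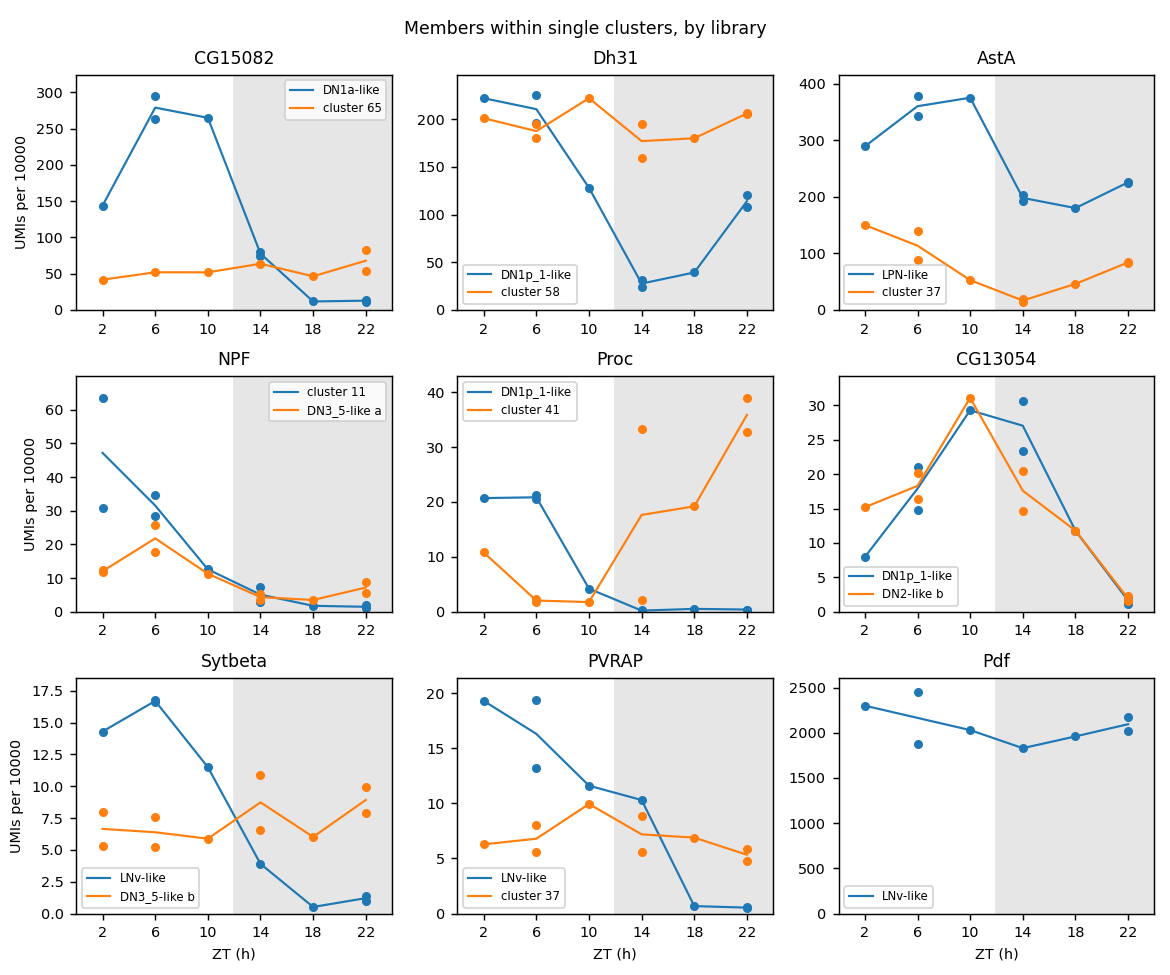
Levels (TP10K, vertical axes from 0) of 9 members against ZT in 1 or 2 clusters each. Points are libraries with at least 5 cells of the cluster, lines join the means per ZT, and the dark phase is grey. CG15082 in DN1a-like cells, Dh31 and Proc in DN1p_1-like cells and Sytbeta in LNv-like cells fall to low values at night, whereas Pdf in LNv-like cells stays between 1830 and 2450.

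CG15082, a gene without a given name on chromosome 2R (18830331 to 18833241), fell from day to night in a single cell group. DN1a-like cells held 96.9% of its UMIs. There it was 144 TP10K at ZT02, 263 and 295 at ZT06, 265 at ZT10, 75.0 and 80.2 at ZT14, 11.7 at ZT18, and 14.3 and 11.3 at ZT22, a ratio of 23.9 between the highest and the lowest ZT mean. The middle of the day and late night therefore did not overlap, and ZT02 and ZT14 lay between them. Over the summed cells it was 7.12 and 8.82 at ZT06 and 10.9 at ZT10, against 0.113 to 6.07 in the other 7 libraries. In cluster 65, which is outside the clock neurons and had 9 of 80 cells in the rule, CG15082 was at 55.9 ± 13.6 TP10K (SD, n = 7) and its highest mean was at ZT22.

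A second group of members was high in LNv-like cells by day. Sytbeta, a synaptotagmin of the family that senses calcium in vesicle release, was 14.3 TP10K at ZT02, 16.8 and 16.6 at ZT06 and 11.5 at ZT10. It fell to 3.90 at ZT14 and to 0.517 at ZT18, and was 1.02 and 1.40 at ZT22. PVRAP, an adaptor of the PVR receptor tyrosine kinase, was 19.3 at ZT02, 19.4 and 13.2 at ZT06, 11.6 at ZT10 and 10.3 at ZT14, and fell below 1 in the 3 later libraries (0.677, 0.509 and 0.560). Their ratios of highest to lowest ZT mean there were 32.3 and 36.2. In the clock neuron cluster with the next highest level of each gene they moved less, as Sytbeta in DN3_5-like b cells lay between 5.21 and 10.9 and PVRAP in cluster 37 between 4.81 and 9.94. Thor, the translation repressor 4E-BP, was 14.8 at ZT02, 12.6 and 21.3 at ZT06 and 14.7 at ZT10 in LNv-like cells, 5.97 at ZT14, and between 1.03 and 1.87 at ZT18 and ZT22. LNv-like cells were also the first cluster, by share of UMIs, for CG42394, CG1504, CG31705, Pka-C3, Cdc7, twit, bnb and E(spl)m6-BFM, so that LNv-like cells were first for 12 of the 56 genes. DN1p_1-like cells were first for 21 genes, cluster 11 for 9 and LPN-like cells for 5.

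Among the genes of DN1p_1-like cells, gogo, an axon guidance receptor, was 6.57 TP10K at ZT02, 6.83 and 5.61 at ZT06 and 1.80 at ZT10, and between 0.272 and 1.46 at night. Sf3b6, a subunit of the splicing factor SF3b, was between 17.6 and 19.5 at ZT02 to ZT10 and between 4.34 and 7.59 at ZT14 to ZT22 in the same cells. In LNv-like cells Sf3b6 was between 1.02 and 1.92 with its highest mean at the same ZT10 and a ratio of 1.88. The day level of Sf3b6 in DN1p_1-like cells was thus above every night library of those cells.

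CG13054, a gene without a given name, was shared by many clock neurons. It was above 0.5 TP10K in 25 of 26 clock neuron clusters and had its highest mean at ZT06 or ZT10 in 17 of them. In DN1p_1-like cells it was 7.96 at ZT02, 14.8 and 21.0 at ZT06, 29.3 at ZT10, 30.7 and 23.4 at ZT14, 11.8 at ZT18, and 1.08 and 2.18 at ZT22. DN2-like b cells followed a similar course, with 31.1 at ZT10, 14.7 and 20.5 at ZT14, and 1.55 and 2.30 at ZT22. The ZT10 and ZT14 libraries overlapped in DN1p_1-like cells, so that the data do not separate a peak before from one after lights off. CG13053, which starts 1846 bases beyond CG13054 on chromosome 3L, is also a member, but 86.6% of its UMIs lay in LPN-like cells, where its highest mean was at ZT14.

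E(spl)m6-BFM, a small gene of the Enhancer of split complex, which responds to Notch, showed a late profile as well. Over the summed cells it was 0.829 TP10K at ZT10, 0.579 and 0.694 at ZT14 and 0.425 at ZT18, and between 0.0128 and 0.134 in the 6 libraries of ZT02, ZT06 and ZT22. Its ratio was 35.1. DN3_6-like a cells carried most of it per UMI, with 6.01 at ZT10, 4.22 and 6.62 at ZT14, 4.37 at ZT18, 1.01 or less before ZT10, and 0.584 and 1.06 at ZT22. In DN3_6-like b cells it had no UMI in the 4 libraries of ZT02 and ZT06 and was 2.91 to 5.70 at ZT10 to ZT18.

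Some members peaked at night in the clock neuron cluster with their highest level. CG15628 was 15.5 TP10K at ZT10 over the summed cells, but ZT14_0307 was at 20.1, and in cluster 11 it was 87.7 and 86.2 at ZT14 against 49.5 at ZT10 and 7.49 to 16.4 in all libraries of ZT02, ZT06 and ZT22. Hr38, a nuclear receptor induced by neuronal activity, was 10.4 at ZT10, but 10.6 in ZT02_1209 and 9.31 at ZT18, and was lowest at ZT14 (4.14 and 4.75) over the summed cells. In DN3_4-like cells, where it was highest among clock neurons, Hr38 peaked at ZT18 (30.8, 1 library). Over the 56 genes of the clock neuron set, the clock neuron cluster with the highest level had its highest mean at ZT06 or ZT10 for 31, at ZT02 for 13 and at night for 12. Over all 3156 genes the share with a highest mean at ZT06 or ZT10 in that cluster was 34.0%, against 55.4% for the 56, and 27 of the 56 also reached a ratio of 2 (48.2%, against 11.9% of all genes). Since the clusters hold the cells that chose the members, these shares describe the members and test nothing.

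Lists of signalling and light input gave 1 or 2 members each. The share was 12.5% for clock feedback and light input and 4.55% for peptide and amine receptors. It was 8.33% for cAMP, cGMP and calcium signalling, beside 3.20% of all 3156 genes. cry, the blue light photoreceptor of clock neurons, was the only member among 8 genes of clock feedback and light input. It was 2.84 TP10K at ZT10, 1.66 and 2.63 at ZT06, and 0.76 and 2.9 at ZT02 over the summed cells. In DN1a-like cells cry was highest at ZT02 (13.7) and lowest at ZT14 (5.79 and 4.01), with 13 and 8.18 at ZT06 and 8.48 at ZT10. Octbeta1R, an octopamine receptor, was the only member among 22 peptide and amine receptors, and was 2.72 at its lowest and 6.22 at its highest ZT mean in DN2-like b cells, with the peak at ZT10. Gyc32E, a receptor guanylyl cyclase that makes cGMP, had 51.2% of its UMIs in DN3_7-like cells. There it was 5.81 at ZT02, 8.01 and 9.50 at ZT06, 11.2 at ZT10, and 3.98 (ZT14), 3.96 (ZT18), 3.55 and 2.94 (ZT22) at night, so that the 3 libraries of ZT06 and ZT10 lay above the other 5. Pka-C3, a catalytic subunit of protein kinase A, was 9.07 at ZT02, 14 and 9.45 at ZT06 and 9.48 at ZT10 in LNv-like cells, and 3.72 to 6.78 at night. None of 21 ion channel genes, 14 genes of synaptic vesicle release, 60 genes of adhesion and wiring, 82 ribosomal protein genes or 55 nuclear genes of the respiratory chain at the level of 0.5 TP10K was a member. At the overall share of 3.20%, few or no members would fall in a list of such size, and nothing is read from these counts.

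Some abundant members of broad expression differed between cell groups. Argk, arginine kinase, which buffers ATP, was 18.4 TP10K in ZT02_0307, 14.1 and 16.6 at ZT06, 9.32 at ZT10 and between 4.6 and 6.12 at ZT14 and ZT18 over the summed cells. In DN1p_1-like cells the ratio of its highest to its lowest ZT mean was 14.4, with the highest at ZT02. Argk was highest in cluster 29, outside the clock neurons, where it lay between 46.1 and 62.3 in all 8 libraries. Eip93F, a transcription factor of the ecdysone cascade, was 9.91 and 9.57 at ZT06, 4.52 at ZT10, and 10.4 in ZT22_0805, so that its groups overlapped. Hsp26, a small heat shock protein, was 19.5 and 24 at ZT06 and 19.3 at ZT10, but 18.6 to 23.4 at ZT18 and ZT22 and 8.34 and 7.22 in the libraries of 20211209. Hsp26 was the only member among 13 chaperone genes, of which 5 others reached the ratio at another ZT. Prosbeta3, a proteasome subunit, Uch, a ubiquitin hydrolase, and p47, a cofactor of the ATPase TER94, were picked after their values were seen and stand for no list. They peaked at ZT10 with levels of 1.07, 0.991 and 0.768 TP10K and ratios of 2.20, 2.12 and 2.05. For 26 of the 56 genes the single ZT10 library was the highest of all 10, and for 25 ZT02_1209 was the lowest.

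The 32 members outside the clock neurons fell into a few cell groups. Cluster 2 was first in UMIs for 20 of them, cluster 29 for 7, cluster 1 for 4 and cluster 20 for Antp, a Hox gene. Cluster 2 (1131 cells) is led by CG4716, cDIP and CG7296 and had 0.161 TP10K of nSyb and 0.0371 of brp, which mark synapses, against 28.2 of nSyb and 0.0658 of brp in cluster 1. Even so it carried tim at 2.60 and cwo at 2.47 TP10K, and 525 of its cells met the rule. Its members include rdhB, a retinol dehydrogenase, the FGF ligand bnl, the BMP inhibitor sog, the receptor gene N (Notch), the Pax factor eyg, and the proctolin receptor gene Proc-R. Cluster 29 (360 cells, 182 in the rule) is led by Tret1-1, a trehalose transporter, and CG4797, and carried the glial gene repo at 2.43 TP10K, but only 2 of 6 glial markers passed and it stays unnamed. Its further members include Lsd-2, a lipid droplet protein, and nec, a serpin. Cluster 1 (1467 cells, 108 in the rule) has 11 TP10K of the neuronal gene elav, against 1.81 in cluster 2, and is led by CG15522, CG2016 and CG14274. Its brp was about as low as in cluster 2, and Eaat1, a glutamate transporter best known from glia, was high there too.

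Over the summed cells these genes differed widely between libraries of the same time point. CG2016 was 8.44 and 6.93 TP10K at ZT06, but 9.16 in ZT02_1209 and 12.8 in ZT14_1209, and 1.35 and 0.868 in the libraries of 20220307. The pairs of libraries at ZT02 and at ZT14 thus lay on both sides of the ZT06 values. CG15739 was 3.67 and 4.01 at ZT06, 0.733 and 0.812 in the libraries of 20220307, and between 3.22 and 3.64 at ZT18 and ZT22. CG4797 was 0.274 and 1.52 in the libraries of ZT06. For 24 of the 32 genes the lowest library was one of 20220307, and for 20 both lowest libraries were of that date. In those libraries cluster 2 gave 1.41% (ZT02_0307) and 1.93% (ZT14_0307) of the UMIs of the cells used, against 2.08% to 6.76% in the other 8. The share of cluster 1 ranged from 0% (ZT22_0805) to 3.93% (ZT14_1209), and that of cluster 29 from 0% (both libraries of 20211209) to 3.32% (ZT06_0805). The summed level of 6 glial markers, all detected in every library, ranged from 3.18 to 9.19 TP10K at ZT06 and ZT10 and from 1.60 to 11.6 at other times, and without Eaat1 from 1.18 to 2.83 and from 0.751 to 2.80. The part of these shares in the result was not tested beyond the levels within clusters.

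Within single clusters most of these genes were flatter, as the ratio was lower there than over the summed cells for 28 of the 32 and higher for 4 (CG7607, CG17278, CG7294 and bnl). The 2 ratios come from different cells. Levels within a cluster cover all of its cells, and the summed levels cover only cells of the rule, which were 10 of 908 in cluster 4. In the cluster outside the clock neurons with its highest level, each of the 32 had a ratio of highest to lowest ZT mean with a median of 1.65, and 10 reached 2, beside the median of 2.69 over the summed cells. The highest was 117 for CG7607 in a glia-like cluster, where it was 0.275 TP10K at ZT18 and 4.77 to 40.6 in the other 8 libraries. CG2016 lay between 200 and 369 TP10K in cluster 1 in all 9 libraries with enough cells, CG4797 between 31.7 and 47.1 in cluster 29, and rdhB between 19.8 and 36.7 in cluster 4. Tret1-1 in cluster 29 was 49.9 at ZT02, 45.2 and 38.3 at ZT06 and 32.2 at ZT10, and between 24.2 and 35.6 at night. CG30197, the outside member with the highest level (29.5 and 34.9 TP10K at ZT06 over the summed cells), was 567 and 561 at ZT06, 571 at ZT10 and 610 at ZT18 in cluster 4, and 265 to 325 in the 4 libraries of 20211209 and 20220307.

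**Figure D4:**
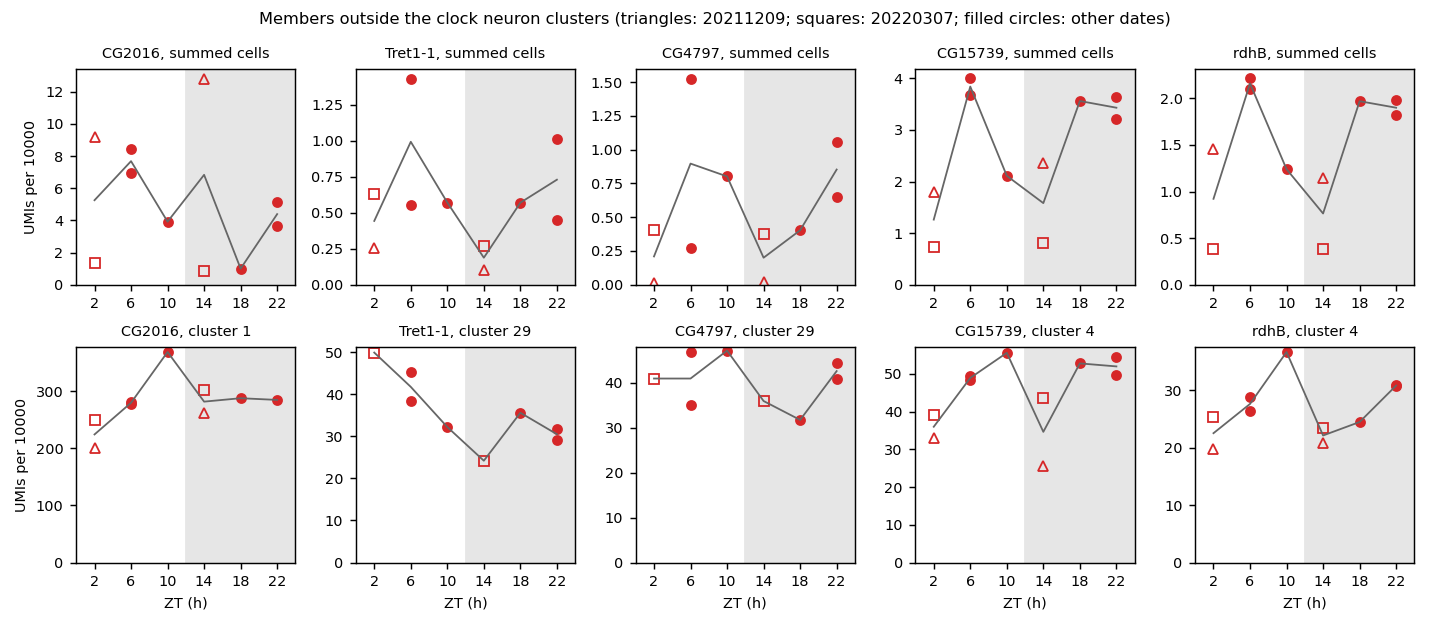
Levels (TP10K, vertical axes from 0) against ZT of 5 members that lie outside the clock neuron clusters, over the summed cells of the rule (top) and over all cells of the cluster that holds their highest level (bottom). Symbols mark the collection date and lines join the means per ZT. In the top row libraries of one time point lie far apart, as CG2016 at ZT14 (12.8 and 0.868), whereas in the bottom row CG2016 stays between 200 and 369.

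Few cells carried the 13 remaining members, from 1 cell with 50% of the UMIs of Rh6, FMRFa or CG12239 to 10 cells for DAT and CG5597. Rh6, an opsin of the eye, is a member through 1 cell of the ZT10 library with 1692 of its UMIs (99.8%), and that cell lay in a photoreceptor-like cluster. ninaE, the major opsin Rh1, had 1269 and 1191 UMIs in 2 cells of the same library and cluster. The peptide genes Crz (corazonin), Hug (hugin), Ms (myosuppressin) and FMRFa, with CG12239, lay in cluster 49, a neuronal cluster with the peptidergic factor dimm among its leading genes, of which 21 of 168 cells met the rule. One cell held 2448 of the FMRFa UMIs (96.2%), and 2 cells of the ZT10 library held 4280 and 3877 of the Crz UMIs. Hug was 8.33 TP10K at ZT10, but also 5.94 in ZT02_0307, 5.33 in ZT14_0307 and 4.73 at ZT18, against 0.00493 in ZT02_1209. Mip (myoinhibiting peptide) lay in cluster 51, Obp44a in a glia-like cluster and DAT, the dopamine transporter, in a monoaminergic-like cluster. CG5597 and CG13856 lay in cluster 53, whose leading gene is the lens protein gene retinin, and Cpr65Au in cluster 36. FMRFa, CG5597, CG13856 and Rh6 had no UMI at all at 1 or more time points. The cell with the most UMIs was not always from the time point of the highest mean, as that of Ms (42% of its UMIs) came from ZT02_0307 while its highest mean was at ZT10.

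The members were tested in 2 sets of cells that the rule did not use. Both sets came from the same 10 libraries that chose the members. A difference between libraries can recur in them, so neither test is independent of that choice. The first set was 11512 cells outside the clock neuron clusters with under 4 UMIs of the clock genes, in which all 101 members passed the minimum of 20 UMIs. A 24 h cosine and sine were fitted over the 10 libraries and tested with edgeR (quasi-likelihood F), and none of the 101 had an adjusted p under 0.05 with a fitted peak from ZT04 to ZT12 (0% of 9297 genes). In simulated counts this test recovered 1 of 50 genes with a 2-fold swing, 12 of 50 with 3-fold and 40 of 50 with 5-fold. The simulated counts gave all genes the same spread and held no difference in cell types between libraries. These recoveries may therefore be too high for the real cells. The median ratio of the members was 2.71, so the lack of calls does not show that they are flat in these cells. At an unadjusted p under 0.05 there were 2 (NPF and FMRFa), beside 34 of all genes, and the DESeq2 likelihood ratio test called none as well, with 2 at an unadjusted p under 0.05. NPF, with the lower p of the pair, had a fitted swing of 8.79 on the log2 scale and an adjusted p of 0.904. The spread between libraries in these cells was large, as cluster 1 alone made up 0.103% to 27.1% of them.

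The second set was 1493 cells of the clock neuron clusters that fell short of 4 clock UMIs, added after the data were seen. They numbered 374 in ZT02_0307 and 386 in ZT06_0805, but 9 and 62 in the libraries of ZT14 and 71 at ZT18. Of 74 members tested, 9 were called towards the day by edgeR's quasi-likelihood F test (12.2%, against 0.255% of 6664 genes), all of the clock neuron set. They were CG15082, Pdf, twit, CG42394, NPF, PVRAP, Dh31, Pka-C3 and CG13054. At any phase 15 were called, against 1.2% of all genes. Libraries collected on the same date were treated as independent in this test, and it was not run with date as a block. The 6664 genes were also not held to the level that members had to reach. CG15082 was 10.5 TP10K at ZT10, 0.126 and 1.07 at ZT06, 0.282 and 0.0 at ZT02 and 1.44 or less at night, with a fitted swing of 7.01 on the log2 scale and an adjusted p of 1.18e-06. Its high value rests on the single ZT10 library. DN1a-like cells, its main source, had 271 of 287 cells in the rule, so that few were left here. Over all DN1a-like cells it was about as high at ZT06 as at ZT10. AstA was 41 and 18.4 at ZT02, 23.6 and 37.6 at ZT06 and 18.1 at ZT10, and 1.19 to 19.6 at night, with a swing of 3.41 and an adjusted p of 0.000108, but its fitted peak at 3.6 h lies just before the window. Argk had a swing of 1.96 and an adjusted p of 0.000255 with the peak at 3.9 h. CG13054 ranged from 1.91 (ZT22_0805) to 5.22 (ZT06_0805), with a swing of 1.22 and an adjusted p of 0.0494.

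Cell numbers moved with these calls. LNv-like cells among the cells left out numbered 6 in ZT02_0307, 3 and 9 at ZT06 and 6 at ZT10, but 0 at ZT14 and ZT18 and 1 at ZT22. Pdf was called with a swing of 7.62 and an edgeR adjusted p of 0.000108, although it lay between 1830 and 2450 TP10K over all LNv-like cells, those left out included. LNv-, LPN-, DN1a- and DN1p-like cells together made up 11.7% to 20.1% of the cells left out in ZT02_0307 and at ZT06 and ZT10, and 3.70% to 14% elsewhere. In the cells summed per library, fewer cells of a type and less RNA per cell cannot be told apart. The part of cell numbers in the other calls was not tested.

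The bulk drivers gave an independent measure of levels at ZT02, because these libraries had no part in the rule. All of them come from this 1 time point, so they compare drivers and hold nothing on the time of a peak. Values are the authors' normalized values, and limma was run on log2(value + 1). Of the 101 members, 82 are in the bulk table, 79 passed the minimum value, and 33 differed between the 3 drivers at an adjusted p under 0.05 (41.8%, against 8.02% of 8334 genes). The share was 18 of 25 in the outside set, 14 of 49 in the clock neuron set and 1 of 5 among the members of few cells. VT055068 was highest for 21 members (6.14% of all genes were called with VT055068 highest), R77H08 for 8 (0.912%) and SS00367 for 4 (0.96%). The count of 33 was 18 with a pseudocount of 0.1 and 21 without repeat A of VT055068. CG2016, CG14274, CG15522 and Eaat1, all of cluster 1, were highest in R77H08. All called members of cluster 29, among them Tret1-1, CG15209 and nec, were highest in VT055068.

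CG2016 was 951 and 544 in R77H08, 4.89 and 1.97 in SS00367, and 8.18 and 7.21 in VT055068. Its log2 difference of R77H08 from the mean of the other drivers was 6.9 ± 0.36 (SE, limma adjusted p = 2.9e-07). Tret1-1 was 560 and 346 in VT055068 and 3.38 or less in the 4 other libraries, 8.25 ± 0.61 on the log2 scale above the mean of the others (limma adjusted p = 2.41e-06). CG15209 was 1000 and 554 in VT055068 and 1.95 to 6.88 elsewhere, and CG30197 was 428 and 180 against 12.4 or less. CG6126 was 268 and 190 in VT055068 and 2.25 or less elsewhere. These 5 genes were chosen for the largest difference between drivers among the called members. In each, the libraries of a single driver lay far above all others.

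Members of the clock neuron set differed less, with a median widest difference of 1.44 on the log2 scale against 4.71 in the outside set. Proc was 150 and 163 in R77H08, 283 and 276 in SS00367 and 18.6 and 63.7 in VT055068 (limma F test, adjusted p = 0.00093). CG13054 was 74 and 194 in R77H08, 56.3 and 103 in SS00367 and 28.3 and 14.4 in VT055068 (adjusted p = 0.00612). Gyc32E was 253 and 144, 205 and 178, and 91.5 and 90.2 in the same order of drivers (adjusted p = 0.0442). NPF was at 4.89 and 11.8 in SS00367 and at 0.744 or less in the other 4 libraries (adjusted p = 0.0293), and E(spl)m6-BFM was 11.7 and 27.1 in R77H08 and at 0.744 or less elsewhere (adjusted p = 0.00381). These 5 genes were picked from the called members, so the lack of overlap between the highest and the lowest driver of each is no further support. With a pseudocount of 0.1 the call of Proc held (adjusted p = 0.0329, with the limma adjusted p of each gene in brackets from here on), and those of CG13054 (0.0713), Gyc32E (0.124), NPF (0.144) and E(spl)m6-BFM (0.0729) did not. Without the filter on low values CG13054 (0.0619) and Gyc32E (0.11) were not called. Without repeat B of VT055068, CG13054 (0.0857), Gyc32E (0.225) and NPF (0.103) were not called, without its repeat A Gyc32E (0.298) and NPF (0.115) were not, and without either SS00367 library Gyc32E (0.188 and 0.146) was not.

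**Figure D5:**
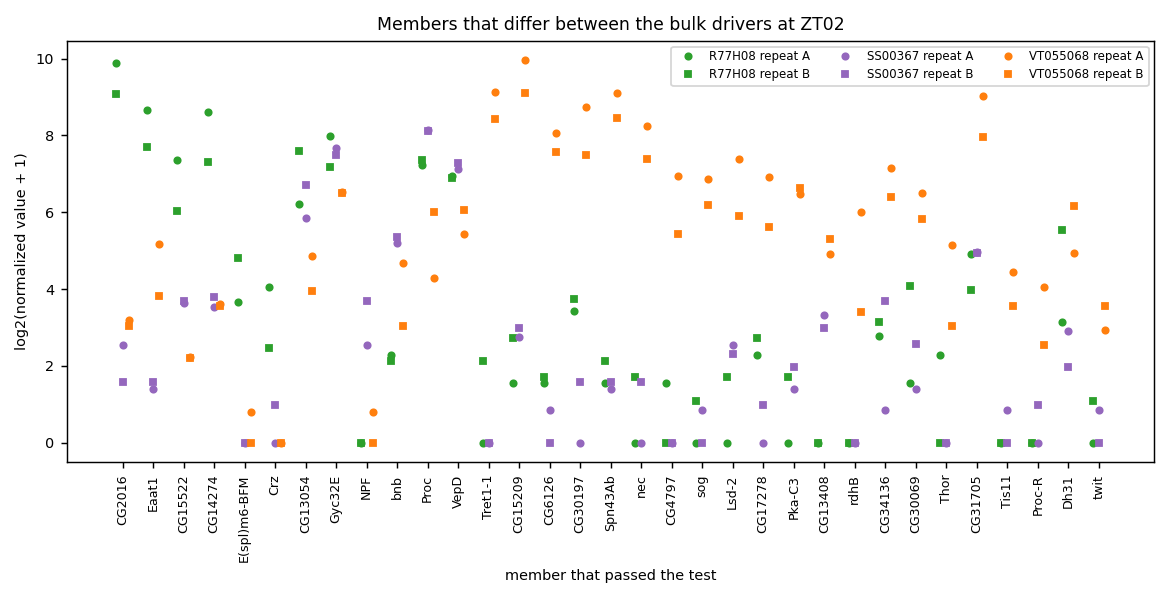
The 33 members that differed between the bulk drivers at ZT02, ordered by the driver with the highest mean and by the size of the difference, with log2(normalized value + 1) on the vertical axis. Circles are repeats A and squares repeats B. CG2016 to CG14274 stand out in R77H08, and Tret1-1 to CG17278 in VT055068.

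The members are spread over the genome. On dm6, 28 of the 101 lie on chromosome 3R, and no member was found on chromosome 4. Pairs of members within 20000 bases of each other numbered 5. Spn43Ab and nec, both serpins of the outside set with a peak at ZT06, lie 2835 bases apart on 2R, and CG13054 and CG13053 lie on 3L. The other pairs are CG13506 with VepD, Pka-C3 with CG17032, and CG6891 with bnb. A gene on the opposite strand overlaps 35 members, whose reads cannot be told apart from that gene's where strand was not used in counting. At the edge of the rule, sog, trn and CG31051 have ratios of 2.01 or less, and just outside lie Sptr, just short of 2, and Pcd and CG6191 with 1.99. By level, esn (0.506 TP10K) is just inside, and Pcyt2 (0.494), Sod3 (0.489) and gl (0.489) are just outside.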

How the data were processed

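Single cells were measured in 10 libraries over 6 time points, and bulk RNA in 6 libraries of 3 drivers. The authors deposited UMI counts per gene and cell (Cell Ranger, dm6, version and use of strand not given in the sources used here), and for the bulk RNA normalized signal values (STAR, dm6). All bulk values (100% within 0.01) were whole multiples of 1 step per library, so reads were recovered (164631 to 505579 per library). Members, lists and tests were chosen with earlier results of these data known.

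Cells had 1001 to 24985 UMIs and at most 9.99% mitochondrial UMIs, and libraries 3518519 to 32385361 UMIs. The study gives a pair of different maxima of UMIs per cell. The higher fits the deposited cells, and under the lower, 15000, 22150 cells would remain; all cells were kept. It also states that doublets were excluded, not whether before the deposit, and none were removed here. Clusters came from 2000 variable genes without members and clock genes, centred per library, 50 principal components, 3 neighbors per library and Leiden at resolution 4. A clock neuron cluster was named X-like with at least 3 markers 2-fold above the other clock clusters in 10% of cells, so differences from the study's clusters may come from these rebuilt names. Other clusters are numbered, and were named only with such a marker among their leading genes. Levels per cluster use all cells of a cluster, in the rule or not, and libraries with 5 or more cells.

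Tests were edgeR's quasi-likelihood F test (24 h harmonic, TMM, genes with at least 20 UMIs), and limma with a trend on log2(value + 1) after removing genes that reached a value of 1 in fewer than 2 libraries, with the Benjamini-Hochberg adjustment over all genes and a threshold of 0.05. They were tested on simulated data. The p-values measure the spread between these libraries. Named are the 12 members of largest ratio, the 12 of highest level, those in lists of known genes, and the 5 with the largest difference between drivers, 37 in all; other members were named after their values were seen. Alternatives were DESeq2, RLE scaling, no filters, other cells, pseudocounts 0.1 and 10, leaving out libraries and blocks. Some libraries were collected on the same date in pairs. In the cells outside the clock neuron clusters, residuals within a pair correlated at 0.0709 to 0.637, against a median of -0.245 in other pairs. Date was therefore used as a block in an alternative for those cells. It was not used for the clock neuron cluster cells with under 4 clock UMIs, where libraries of the same date were treated as independent. Tools were Python 3.11.15 (numpy 2.4.6, scipy 1.17.1, pandas 2.3.3, scanpy 1.11.5, igraph 0.11.9, umap-learn 0.5.12, matplotlib 3.10.9) and R 4.3.3 (edgeR 4.0.16, DESeq2 1.42.0, limma 3.58.1). Positions are from Ensembl on dm6. The depth of each library sets how low a level can be seen, and no sequences were used here.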

Additional observations from a re-analysis of the deposited data

How the results depend on the processing

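The number of members was 101, and the other ways of scaling, filtering and choosing cells gave 72 to 109, of which 48 (cells of the clock neuron clusters) to 78 (each cell scaled and averaged) were shared. With 1 library left out at a time there were 53 to 143 members, the 53 without the ZT10 library. The peak time of the 48 members highest at ZT10 rests on that library. The 53 left without it are not the same genes as those with a peak at ZT06. CG15082 still met the rule (means of 7.97 TP10K at ZT06 and 0.474 at ZT18). A member with its peak at ZT06, alpha-Est8, no longer did (0.626 at ZT06 against 0.330 at ZT02). Of the settings added after the data were seen, cells with at most 15000 UMIs gave 161 members (90 shared), equal weight to the clock neuron clusters without the libraries of 20211209 gave 33 (21 shared), and leaving out these libraries alone gave 108 (75 shared). In cells outside the clock neuron clusters, 0 members were called under every such setting, including the replicate block by collection date (0) and each library left out in turn (0 to 0). In clock neuron cluster cells with under 4 clock UMIs 9 were called, and 9 without the libraries of 20211209.

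For the bulk drivers the count was 33. It was 18 with a pseudocount of 0.1, 34 with a pseudocount of 10, 24 without the filter, 36 with the replicate block (the repeats A and B share only a letter, and their deviations correlated at 0.0018 to 0.0789) and 38 by edgeR on recovered reads, and leaving out 1 library gave 21 (without VT055068 replicate A) to 40. The lone library of a driver is then assumed to vary like the others. The rule cells hold from 2026913 UMIs (ZT02_1209) to 15215785, so low levels carry the most counting error in ZT02_1209.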
